A study of Mus musculus with 24 samples.

Results

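miR-10a and miR-10b are a pair of nearly identical microRNAs (miRNAs) whose genes lie inside Hox gene clusters. They were taken as the 2 assays named mmu-miR-10a and mmu-miR-10b, of 584 miRNA assays on the cards, and both are on card A. Muscle stem cells of male C57BL/6 mice aged 8 weeks were profiled by real-time PCR, as quiescent cells (0 h) and as activated cells harvested 36, 60 and 72 h after injury. No transgene, deletion or drug is named for any group, and the labels name no sort. Each group has 3 replicates per card, which the series calls technical, so the spread given here does not cover variation between mice. The last group is 72 h in the labels and day 3.5 in the headers of the authors' tables, and the labels were followed.

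miRNAs are short RNAs that guide Argonaute proteins to messenger RNAs, mostly through their seed, the bases 2 to 8 from the 5′ end. miR-10a lies in the HoxB cluster and miR-10b in the HoxD cluster, among transcription factor genes that set position along the body axis, and Hox messenger RNAs are among their reported targets. miR-10b is also known for promoting invasion of breast cancer cells, and miR-10a for restraining inflammatory signalling in endothelium.

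The guide strands are shown because they share a seed and nearly all other bases, so the assays had to separate almost identical molecules. Sequences are from RefSeq (GRCm38.p6), 5′ to 3′, with the seed in capitals.
miR-10a-5p: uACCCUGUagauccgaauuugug
miR-10b-5p: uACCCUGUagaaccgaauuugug
Counted from the 5′ end of the guide, miR-10b differs from miR-10a at 1 of 23 positions (U12A), outside the seed. The files do not show whether either assay also reads the other miRNA, and this was not tested. The opposite strands of the same hairpins, measured on card B, differ at 3 of 22 positions (A3G, U9A and A10U).
miR-10a-3p: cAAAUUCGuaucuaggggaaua
miR-10b-3p: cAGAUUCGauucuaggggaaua
Other guides measured here are shown for comparison of seeds, miR-196b from the HoxA cluster and miR-100, whose seed begins like that of miR-10 and then differs.
miR-196b-5p: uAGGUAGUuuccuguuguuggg
miR-100-5p: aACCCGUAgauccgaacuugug

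The miR-10a hairpin lies at chr11:96317165-96317274 on the plus strand (GRCm38.p6), within the annotated span of Hoxb3 and 993 bases from Hoxb4. The miR-10b hairpin lies at chr2:74726070-74726137 on the plus strand, within the annotated spans of Hoxd3 and Hoxd4. Only gene spans were used, so exon and intron were not assigned.

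The level of a miRNA on an array was computed by subtracting its threshold cycle (Ct) from the mean Ct of the 4 spots of U6, a small nuclear RNA. Levels are therefore in log2 units, and a less negative level means more RNA. A spot counts as detected below Ct 35. The members were chosen on these levels, so their values and changes are a description with no test.

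miR-10b was higher at 36 h and then lost most of its signal. At 0 h its levels were -12.49, -11.46 and -11.20 in replicates 1, 2 and 3. At 36 h they were -8.10, -8.12 and -8.17. At 60 h they were -16.21 and -16.02 in replicates 1 and 2, and replicate 3 gave no Ct. At 72 h replicate 3 was at -18.56, while replicates 1 and 2 gave no Ct. The 36 h arrays are all above the 0 h arrays, and every detected array at 60 and 72 h is below them, so the detected arrays at 0, 36 and 60 h do not overlap. How many other assays separate in this way was not counted.

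In the same cells miR-10a moved less. At 0 h its levels were -11.33, -10.94 and -11.41. At 36 h they were -10.48, -10.35 and -10.42, all slightly above 0 h. At 60 h they were -14.15, -14.29 and -14.47, and at 72 h -13.98, -14.09 and -14.63. The 60 and 72 h arrays overlap and lie below all arrays of 0 and 36 h.

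**Figure D1:**
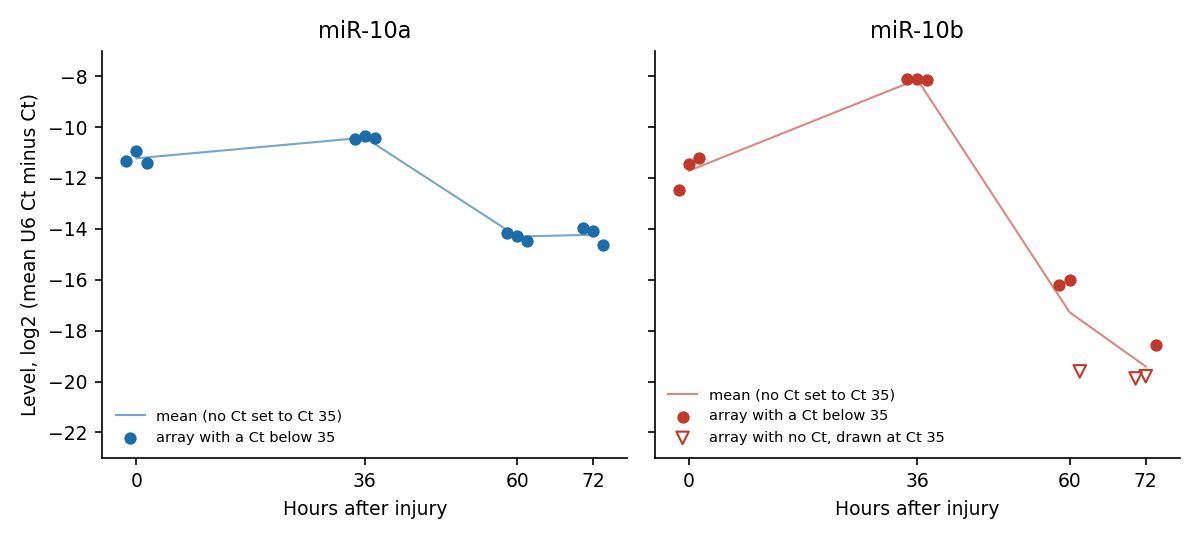
Level of miR-10a (left) and miR-10b (right) on each card A array, in log2 relative to U6, against hours after injury; points are arrays, open triangles are arrays with no Ct drawn at Ct 35, and the line joins group means. miR-10b goes from -11.72 at 0 h to -8.13 at 36 h and has 2 detected arrays at 60 h and 1 at 72 h, while miR-10a is detected on all 12 arrays.

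Against 0 h, miR-10b was 12.05-fold higher at 36 h (log2 3.59 ± 0.39, SE, n = 3 arrays per group). With arrays without a Ct set to Ct 35, it was at least 47.1-fold lower at 60 h and at least 207-fold lower at 72 h (log2 at most -5.56 and -7.69). These bounds, and those given below, assume that an array without a Ct lay beyond Ct 35, which was not tested. With a detection limit of Ct 32 the log2 changes were -4.56 and -5.17. Using detected arrays alone, the log2 change was -4.40 at 60 h (2 arrays) and -6.84 at 72 h (1 array). Between 36 and 60 h the fall was 254-fold over the detected arrays and at least 568-fold with the missing array at Ct 35. Among 279 assays tested between these times, the fall of miR-10b over detected arrays (log2 -7.99) ranked first, ahead of mmu-miR-382 (-5.37) and mmu-miR-143 (-4.66). Only assays with at least 2 detected arrays at both times are ranked, which leaves out those undetected at 60 h, such as miR-431. The rank also restates levels on which the members were chosen.

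miR-10a was 1.76-fold higher at 36 h (log2 0.81 ± 0.15), 8.43-fold lower at 60 h (-3.08 ± 0.17) and 8.02-fold lower at 72 h (-3.00 ± 0.25). Its fall from 36 to 60 h was 14.8-fold (log2 -3.89) and ranked seventh of 279. From 60 to 72 h its mean moved by 0.07, less than the spread within either group. Its small difference at 36 h was that of a typical assay: the median change of tested card A assays was 0.91, which leaves miR-10a at -0.10 and miR-10b at 2.68 relative to that median. At 60 h the corresponding values were -2.58 and -5.07, and at 72 h -1.64 and -6.32, those of miR-10b being upper bounds. Large changes were common on the cards. Of all tested assays, limma called 56.2% at 36 h against 0 h (44.1% higher, 12.1% lower), 64.4% at 60 h (28% higher, 36.4% lower) and 66.8% at 72 h (20.9% higher, 45.9% lower). Between 36 and 60 h it called 54.8% (5.38% higher, 49.5% lower), and between 60 and 72 h 36.6% (0.755% higher, 35.8% lower). Since the members were chosen on their levels, nothing is read from these shares about them.

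The authors' deposited table gives average folds over day 0 of 1.76 for miR-10a and 13.1 for miR-10b at day 1.5. For day 2.5 the authors' deposited table has 0.119 for miR-10a and 0.0392 for miR-10b, and for day 3.5 it has 0.126 and 0.00227. That table writes Ct 40 where none was determined and averages folds over replicates. Its values for miR-10b at day 2.5 and day 3.5, equal to 25.5-fold and 441-fold decreases, therefore rest in part on filled-in Ct values. The values above are bounds at Ct 35 from mean log2 levels, so the 2 sets are not alike in measure.

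The direction of the miR-10b changes was the same with every normalizer tried, whereas that of miR-10a was not. Besides U6, the levels were taken relative to snoRNA135, to snoRNA202 and to the mean of the assays detected on all 12 arrays of the card (the global mean). At 36 h the log2 change of miR-10b was 3.81 with snoRNA135, 4.47 with snoRNA202 and 2.30 with the global mean. At 72 h the bounds were -6.83, -4.64 and -6.66. miR-10a at 36 h was 1.03 with snoRNA135, 1.69 with snoRNA202 and -0.48 with the global mean. At 72 h miR-10a was 0.045 with snoRNA202, against -2.14 with snoRNA135 and -1.97 with the global mean. snoRNA202 itself stood at -2.40 (60 h) and -3.05 (72 h) relative to its 0 h level when measured against U6 (log2).

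**Figure D2:**
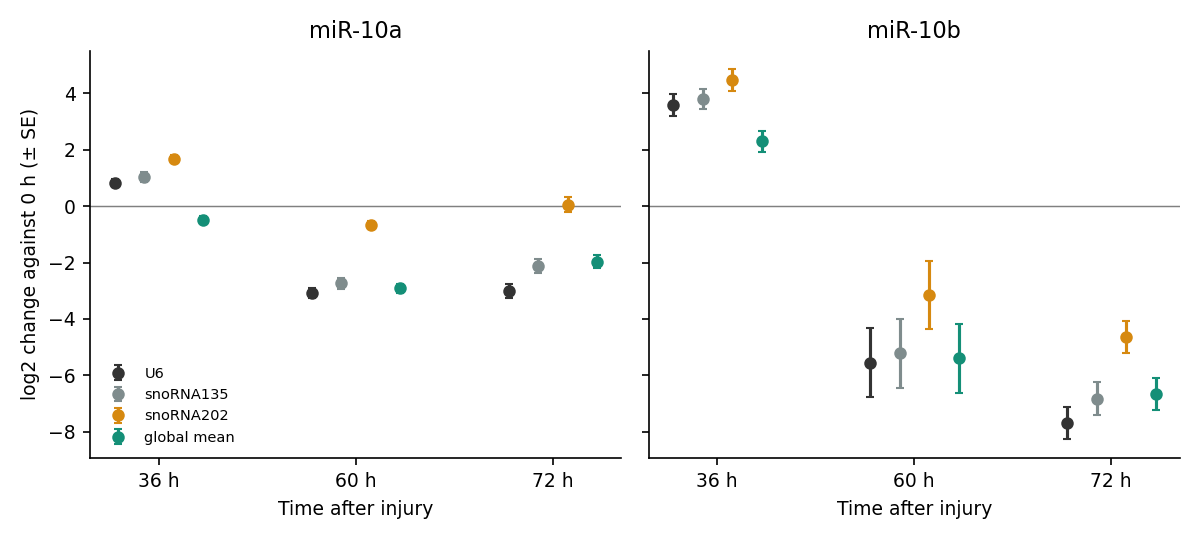
log2 change of miR-10a (left) and miR-10b (right) against 0 h at 36, 60 and 72 h under 4 normalizers; points are differences of group means of 3 arrays, bars are standard errors, and arrays without a Ct are set to Ct 35, so miR-10b at 60 and 72 h is an upper bound. All 4 points of miR-10b lie above 0 at 36 h and below 0 later, while those of miR-10a span 0 at 36 h (-0.48 to 1.69).

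The members were also set against each other on the same array, where no normalizer enters. The Ct of miR-10a minus that of miR-10b is not a ratio of molecules, since the assays may amplify differently, but its shift between times is a relative change. At 0 h this difference was -1.16, -0.52 and 0.20 in replicates 1, 2 and 3. At 36 h it was 2.38, 2.22 and 2.25, above every 0 h array. At 60 h it was -2.06 and -1.74 on the arrays with a Ct for both, and at 72 h -3.93 on 1 array. Relative to miR-10a, miR-10b thus gained 6.85-fold by 36 h (log2 2.78). With missing values at Ct 35, it then lay at least 5.59-fold below its 0 h ratio at 60 h and at least 25.8-fold below it at 72 h (log2 -2.48 and -4.69). The 60 h value rests on the array without a Ct: without that array the shift was -1.40, and with missing values at Ct 32 it was -1.48.

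**Figure D3:**
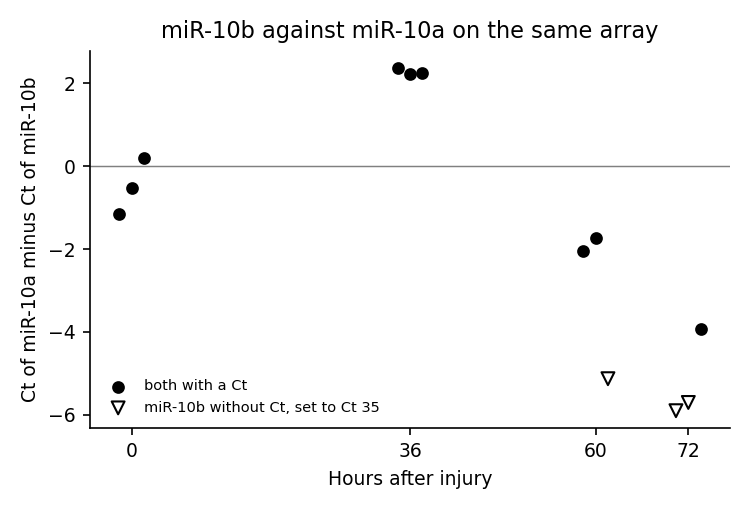
Ct of miR-10a minus Ct of miR-10b on each card A array, in cycles, against hours after injury; filled points have a Ct for both, and open triangles have miR-10b set to Ct 35. The 36 h arrays lie between 2.22 and 2.38 and the 0 h arrays between -1.16 and 0.20, and the highest later array is at -1.74.

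Replicates of miR-10b did not agree equally well at each time. At 0 h the SD of its level was 0.68, above that of each of 30 other card A assays with a mean Ct within 1 cycle of it (median 0.13, highest 0.40), and replicate 1 was the low array. At 36 h its SD was 0.03. The SD of miR-10a at 0 h was 0.25, and 1 of 29 assays of similar Ct had as large a value. The array without a Ct at 60 h stands beside 2 arrays at Ct 31.6 and 31.4. On card A at 60 h, 4 assays lacked a Ct on 1 array while the others averaged below Ct 32 (miR-10b, miR-339-5p, miR-34a and miR-382), and 166 assays with a mean below Ct 32 had a Ct on all 3 arrays. Leaving out replicate 1 at 0 h moved the miR-10b change at 36 h from 3.59 to 3.20, and leaving out replicate 3 at 60 h moved its change at 60 h from -5.56 to -4.40.

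The passenger strands, which share the hairpins but were no part of the choice, were near or below detection. miR-10a* gave no Ct in any of its 24 spots. miR-10b* had a Ct below 35 in 3 of 6 spots at 0 h (Ct 33.1 to 33.6) and 2 of 6 at 36 h (32.4 to 32.7), and in 0 of 6 at 60 h and 0 of 6 at 72 h. At 60 h, 3 of its spots gave a Ct of 35.2 to 36.0. It was detected in both spots of 1 array at 0 h and 1 array at 36 h, too few to test a change.

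Relative to U6, no other miRNA of a Hox cluster that could be tested was called below its 0 h level at 60 or 72 h. Of 7 other Hox cluster assays on the cards, 2 could be tested: miR-196b, from the HoxA cluster, and the rat assay of miR-196c, a close relative of miR-196a, which comes from the HoxB and HoxC clusters. miR-196 guides are known to cleave Hoxb8 messenger RNA. The level of miR-196b over the 4 times, in order, was -10.67 ± 0.07, -8.84 ± 0.05, -10.42 ± 0.08 and -11.08 ± 0.08 (SD, n = 3). The miR-196c assay was at -8.23 ± 0.16, -7.14 ± 0.04, -8.56 ± 0.11 and -9.23 ± 0.08. Both passed at 36 h against 0 h, miR-196b 3.54-fold higher (limma, log2 1.82 ± 0.07, SE, adjusted p = 2.13e-09) and miR-196c 2.13-fold higher (limma, 1.09 ± 0.09, adjusted p = 1.75e-06), where 44.1% of all 272 tested assays were called higher. With the global mean the change of miR-196b was 0.53 and that of miR-196c -0.20, and neither was called.

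Both also fell from 36 to 60 h, miR-196b 2.97-fold and miR-196c 2.67-fold, a step at which 49.5% of 279 tested assays were called lower. Neither fall was called with snoRNA202 or the global mean. Neither assay was called against 0 h at 60 h (36.4% of 250 assays called lower) or at 72 h (45.9% of 244 called lower). The log2 change at 72 h was -0.41 ± 0.07 for miR-196b and -0.997 ± 0.09 for miR-196c, the latter just under the 2-fold minimum. With snoRNA202 both were instead called higher than at 0 h, miR-196b at 2.66 and 2.64 and miR-196c at 2.07 and 2.05 (log2, 60 and 72 h). Relative to U6, miR-196c was called lower at 72 h on leaving out replicate 1 at 0 h (-1.09), replicate 2 at 72 h (-1.002) or replicate 3 at 72 h (-1.03). miR-615-3p and miR-615-5p, from an intron of Hoxc5, gave no Ct on any array. miR-196a* had at most 4 of 6 spots below Ct 35, at 60 h.

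The related miR-99a, miR-99b, miR-100, miR-125a-5p and miR-125b-5p, which come from shared transcripts elsewhere in the genome, separated by hairpin cluster. All 5 were tested, and 1 was higher at 36 h, where 44.1% of all tested assays were (median log2 change 0.31, against 0.82 for all tested assays). At 60 h 3 were lower and 1 was higher, with a median of -1.64 against -0.37. At 72 h 3 were lower and 0 higher, with a median of -3.39 against -0.77. Across all tested assays, 36.4% were called lower and 28% higher at 60 h, and 45.9% lower at 72 h. The lower assays were miR-99a, miR-100 and miR-125b-5p, at -1.69 ± 0.09, -2.06 ± 0.11 and -1.64 ± 0.04 at 60 h. At 72 h they were at -3.50 ± 0.09, -3.65 ± 0.11 and -3.39 ± 0.04, beside -3.00 for miR-10a. miR-125a-5p was 2.53-fold higher at 36 h, which global mean scaling reduced to a log2 change of 0.05 that was not called. miR-99b was 2.09-fold higher at 60 h, a call lost without replicate 3 at 0 h (log2 0.96). With snoRNA202 the 3 falls at 60 h turned to 0.71, 0.34 and 0.76 and those at 72 h were no longer called (-0.45, -0.60 and -0.34). All these comparisons share the same 0 h arrays.

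**Figure D4:**
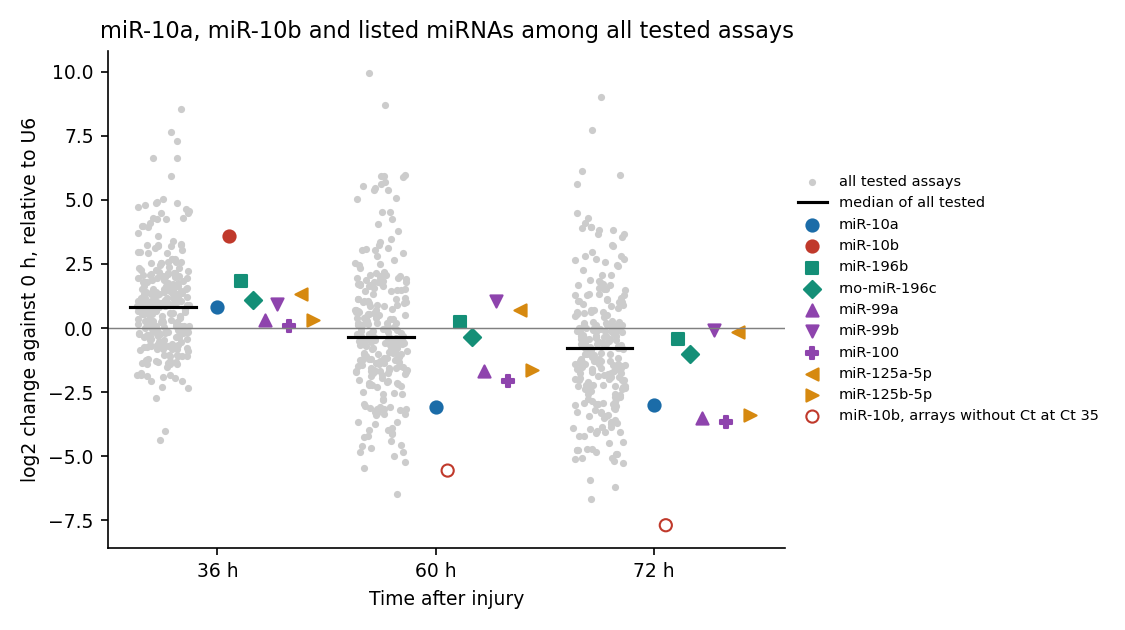
log2 change against 0 h relative to U6 at 36, 60 and 72 h; grey points are all tested assays, the black bar is their median, and coloured markers are miR-10a, miR-10b, the 2 miR-196 assays and the 5 related assays. miR-10b stands at 3.59 at 36 h and, with missing arrays at Ct 35 (open circle), at -5.56 and -7.69 later, while miR-196b stands at 0.25 and -0.41.

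The profile of each member over the 3 later times was compared with that of 169 other card A assays detected on all 0 h arrays, by the root mean square distance between their log2 changes against 0 h (undetected values at Ct 35). The assays nearest to miR-10a were miR-574-3p (distance 0.41), miR-339-5p (0.46) and miR-434-5p (0.47), the last from the Dlk1-Dio3 locus. miR-574-3p was at 0.53, -3.34 and -3.60 at 36, 60 and 72 h. Those nearest to miR-10b, whose later changes are bounds set by the Ct 35 limit, were miR-431 at a distance of 2.598, miR-136 at 2.76 and miR-145 at 2.87. miR-431 lacked the rise (-0.71 at 36 h) and was undetected at 60 and 72 h. The distances from miR-10b depend on that limit and were not computed at another.

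Among 249 assays tested at both times, 11 (4.42%) were called higher at 36 h and lower at 60 h. miR-10b is 1 of them, which only restates the levels it was chosen on. The others were both strands of miR-126, miR-143, miR-214, miR-152, miR-30e, miR-339-5p, miR-652, and the mouse and rat assays of miR-125b*. The count was 14 (5.62%) with snoRNA135, a group that held both miR-10a and miR-10b. It was 2 (0.803%) with snoRNA202 or the global mean, being miR-10b with miR-150 in the first case and with miR-143 in the second. Thus miR-10a was in the group under snoRNA135 but not under these or U6. Under each normalizer the place of miR-10a or miR-10b restates the levels they were chosen on and is no support.

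Several miRNAs in that group are enriched in other cells, so marker lists were measured beside the members. All marker values are relative to U6 alone. Against U6, snoRNA202 stood at -2.40 at 60 h and -3.05 at 72 h, so smaller falls reverse in sign with it. At 60 h that holds for both miR-126 strands, miR-143 (-2.09) and miR-214 (-1.48), but not for miR-145 (-4.23). Both endothelial strands, miR-126-3p and miR-126-5p, were higher at 36 h (log2 2.22 ± 0.05 and 1.95 ± 0.06) and lower at 60 h (-1.78 ± 0.05 and -1.76 ± 0.06). Their summed level was -4.52 to -4.44 at 0 h, -2.29 to -2.28 at 36 h, -6.28 to -6.19 at 60 h and -6.42 to -6.40 at 72 h. Of 5 mesenchymal and smooth muscle miRNAs, 4 were tested, 3 were higher at 36 h and 3 lower at 60 h. Across all tested assays, 44.1% were called higher at 36 h and 36.4% lower at 60 h. The list's sum went from between -3.23 and -3.11 at 0 h to between -2.76 and -2.70 at 36 h. At 36 h miR-143, miR-199a-3p and miR-214 were higher by 2.57, 3.19 and 1.41, and miR-145 was at -0.33. The sum rose less than those assays because miR-145 made up most of it at 0 h. At 60 h that sum was -6.16 to -6.13 and at 72 h -6.82 to -6.75, with miR-199a-5p undetected at 0, 36 and 60 h. The fall of miR-10b from 36 to 60 h (log2 -7.99) exceeded that of miR-143 (-4.66), miR-126-3p (-4.00) and miR-145 (-3.90), while that of miR-10a (-3.89) was close to that of miR-145 and smaller than the other 2.

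Of 6 leukocyte miRNAs, 4 of 5 tested were higher at 36 h (44.1% of all tested assays were). At 60 h 3 were higher and 1 lower than at 0 h (28% and 36.4% of all tested assays). The list's sum was -5.38 to -5.34 at 0 h, -3.72 to -3.65 at 36 h, -6.57 to -6.44 at 60 h and -7.42 to -7.28 at 72 h. The lower assay was miR-150 (log2 change -3.67 at 60 h and -4.21 at 72 h). The fall of the sum below 0 h at 60 h comes from miR-150, since miR-155 (1.91) and miR-146a (0.39, not called) were not below 0 h then. By contrast, miR-142-3p (5.91 and 5.61) and miR-223 (4.06 and 3.81) stayed above 0 h. miR-142-5p was undetected at 0 h. The erythroid miR-451 was undetected at 0 h and at -14.07 to -12.99 at 36 h, -18.79 to -16.07 at 60 h and at most -19.66 at 72 h. Of 7 epithelial miRNAs only miR-203 was detected on all arrays at 0 h, and the list's sum was -9.22 to -9.05 at 0 h, -8.75 to -8.59 at 36 h, -10.91 to -10.78 at 60 h and -12.25 to -12.04 at 72 h. The part of other cells in the miR-10a and miR-10b changes was not tested. In such bulk samples, fewer cells of a type and less RNA per cell cannot be told apart.

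The muscle-enriched miRNAs were above their 0 h level at 60 and 72 h. miR-133b, which shares a transcript with miR-206, was at 3.96 ± 0.11, 5.61 ± 0.11 and 6.11 ± 0.11 (log2 change against 0 h at 36, 60 and 72 h). Of the list, 4 of 4 tested assays were higher at 60 and at 72 h than at 0 h, where 28% and 20.9% of all tested assays were. From 36 to 60 h, 2 of these 4 were higher (miR-133b and miR-206), miR-1 was lower (log2 -1.27 ± 0.24) and miR-133a was not called (0.27 ± 0.07). At that step 5.38% of all tested assays were called higher and 49.5% lower. On card A the list's sum was -9.99 to -9.82 at 0 h, -7.47 to -7.41 at 36 h, -6.60 to -6.45 at 60 h and -5.90 to -5.71 at 72 h, with miR-208b and miR-499 undetected throughout. miR-206, on card B, was detected on every array.

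**Figure D5:**
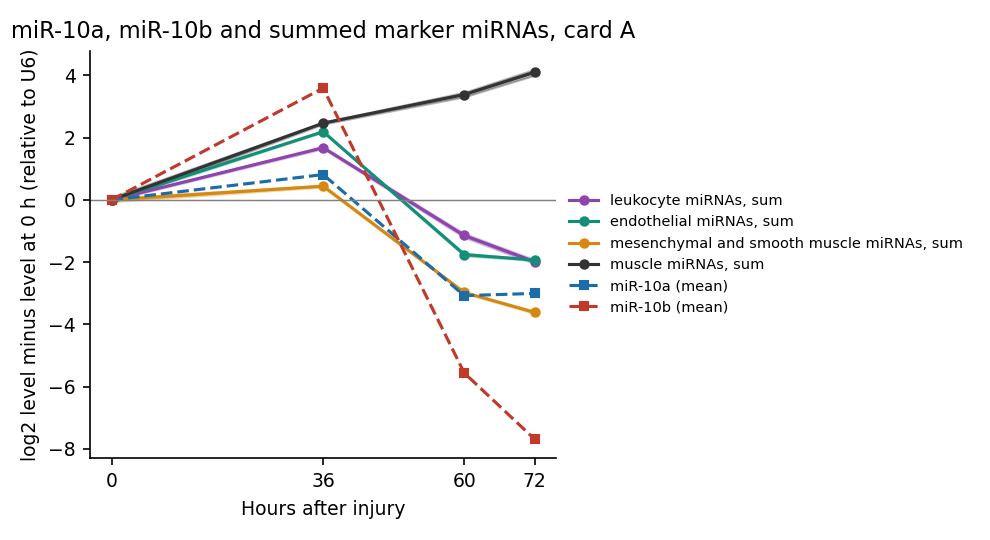
log2 level relative to U6 minus the 0 h value, against hours after injury, for miR-10a and miR-10b (dashed, group means with missing arrays at Ct 35) and for summed marker miRNAs on card A (solid, midpoint of the arrays, band from the lowest to the highest array). The endothelial sum is highest at 36 h and below 0 h from 60 h on, as are both members. The leukocyte sum and the mesenchymal and smooth muscle sum have the same order, as has the epithelial sum (not drawn), so it is not particular to the endothelial list. A sum need not follow its list. At 60 h only miR-150 of the leukocyte assays was called below 0 h (log2 -3.67), and 3 of 5 tested were called above it. The muscle sum is higher at each later time.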

How the data were processed

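TaqMan rodent miRNA cards A and B were run for 40 cycles on 24 arrays of muscle stem cell RNA, per the labels. The deposited single-array files hold a Ct per spot. The card was read from each file's assay names. Card A holds 375 and card B 209 miRNA assays, and 181 to 212 and 89 to 120 were detected per array. The number of arrays limits precision. The authors' deposited fold changes are linear ratios made from dCt, with 40 for an undetermined Ct, per the file headers and values. The threshold setting is not given in the sources used here. 84 other per-sample columns were not used.

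Levels were U6 minus assay Ct, and spots of an assay were averaged. Assays with at least 2 detected replicates per group were tested with limma 3.58.1 (R 4.3.3), 1 fit per card over 12 arrays, with Benjamini-Hochberg adjustment over both cards, and called at adjusted p below 0.05 and 2-fold. The fit was tested on simulated data. Members with no Ct were set to Ct 35. Members and lists were chosen with earlier results of these data known. Named were the members, the listed assays, cell type markers and the 3 nearest profiles, and others where a count or rank led to them. miRNAs were matched to RefSeq by name.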

Additional observations from a re-analysis of the deposited data

Results flagged for a closer look

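For some miRNAs every 36 h array lay above, and every array of a later time below, all 0 h arrays, relative to U6. How many of all assays do so was not counted, so the separation is not shown to be particular to the assays named here. The limma calls are a different measure. Against 0 h, 44.1% of all tested assays were called higher at 36 h, and 36.4% and 45.9% lower at 60 and 72 h. For the members the values below are a description, since they were chosen on their levels, and no test of them is used. miR-10a differed between 60 and 36 h by -3.89 and between 72 and 36 h by -3.82 (log2). For miR-10b the same differences were at most -9.15 and -11.28 with missing arrays at Ct 35. The difference between 72 and 36 h was not tested for the assays that follow. It was -2.23 for miR-196b, -2.09 for the rat assay of miR-196c, -3.81 for miR-99a, -1.51 for miR-125a-5p and -3.68 for miR-125b-5p. Between 60 and 36 h the difference was -1.42 for miR-196c, -2.004 for miR-99a and -1.94 for miR-125b-5p, each called by limma (adjusted p = 1.93e-07, 1.45e-08 and 6.08e-11).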

How the results depend on the processing

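For miR-10b the log2 change at 36 h was 4.47 with snoRNA202, and global mean scaling gave 2.30. At 60 h it was -3.15 with snoRNA202 and -7.23 with a detection limit of Ct 40. At 72 h it was -4.64 with snoRNA202, -6.83 with snoRNA135, -6.66 with the global mean, -11.02 at Ct 40, -5.17 at Ct 32 and -6.84 with undetected values left out, an alternative chosen after seeing the data. For miR-10a the change at 36 h was 1.69 with snoRNA202, 1.03 with snoRNA135 and -0.48 with the global mean, a reversal. At 60 h it was -0.67 and -2.74 with snoRNA202 and snoRNA135, and at 72 h 0.045 with snoRNA202, a reversal, -2.14 with snoRNA135 and -1.97 with the global mean. The shift of miR-10b relative to miR-10a was -4.15 at 60 h and -8.02 at 72 h with Ct 40, -1.48 and -2.16 with Ct 32, and -1.40 and -3.44 with undetected values left out.

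Leaving out 1 replicate gave 0.72 to 0.96, -3.17 to -2.93 and -3.13 to -2.80 for miR-10a at 36, 60 and 72 h, and 3.20 to 3.85, -6.19 to -4.40 and -8.12 to -7.43 for miR-10b. The relative shift ranged from 2.44 to 3.13, -3.10 to -1.40 and -5.31 to -4.33.

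Of the 2 tested Hox cluster assays, 2 were called at 36 h and 0 with the global mean. At 60 h and at 72 h 0 were called, against 2 with snoRNA202 each time (both higher), and 0 to 1 at 72 h on leaving out a replicate. Between 60 and 36 h 2 were called (lower), and 0 under either snoRNA202 or global mean scaling. Of the 5 related assays, 1 was called at 36 h (higher), against 1 lower under global mean scaling, and 4 with snoRNA202, 2 with snoRNA135 and 1 to 2 on leaving out a replicate (2 without replicate 1 at 0 h or replicate 2 at 36 h, when miR-99b was added). At 60 h 4 were called (1 higher, 3 lower), and 2 with snoRNA202, both higher, with 0 lower. At 72 h the 3 lower calls became 2 higher and 0 lower under snoRNA202. Between 60 and 36 h it was 3, all lower, and under either snoRNA202 or global mean scaling 1, which was higher, so that none of the 3 falls was called there. Between 72 and 60 h it was 4 (lower), against 2 under snoRNA202 and 0 under global mean scaling.

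Single changes reversed as follows. With the global mean at 36 h: miR-196c -0.20, miR-99a -0.98, miR-99b -0.36, miR-100 -1.20 and miR-125b-5p -0.996. With snoRNA202 at 60 h: miR-196c 2.07, miR-99a 0.71, miR-100 0.34 and miR-125b-5p 0.76, and with snoRNA135 miR-196c 0.0075. At 72 h with snoRNA202, snoRNA135 and the global mean: miR-196b 2.64, 0.46 and 0.62, miR-99b 2.96, 0.78 and 0.94, and miR-125a-5p 2.88, 0.70 and 0.86. miR-196c was 2.05 with snoRNA202 and 0.035 with the global mean. On leaving out a replicate, miR-99b ranged from -0.19 to 0.012, the latter without replicate 1 at 0 h. The cause was not tested.

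With the replicate number as a block, the counts of calls were as without it (1, 4 and 3 of the related assays at 36, 60 and 72 h). Deviations of same-numbered arrays of different groups had a median r of 0.01 (18 pairs, 152 assays, lowest -0.27, highest 0.36). For arrays of different numbers the median was -0.01 (36 pairs, lowest -0.33, highest 0.21). Whether a shared number marks a pairing is not settled by these values. Of 12 arrays, 6 had their highest mean correlation with arrays of their own number. Missing Ct values limit miR-10b at 60 and 72 h to bounds, whereas miR-10a was detected on every array.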
